A study of Mus musculus with 2 samples.

Results

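The transcripts described here are those of the mouse mitochondrial genome, together with 4 nuclear genes on chromosome 1 whose sequence is a copy of a mitochondrial gene. All genes whose symbol starts with mt- were taken, which gave 13 mRNAs, 2 ribosomal RNAs and 22 transfer RNAs, and the copies Gm28661, Gm10925, Gm28437 and Gm29216 were added, to be summed with mt-Co2, mt-Atp6, mt-Co3 and mt-Co1. These are 41 of 55536 annotated genes. The 4 copies were selected on their measured level in the alignment-based tables of these libraries, so those levels are given as a description and support nothing.

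The samples form 1 group: 2 stranded total RNA libraries from the left cerebral cortex of female mice of the B6CASTF1/J hybrid, 2 months old, made from 300 ng of RNA each with ERCC spike-in RNAs and with no treatment named in the labels. B6CASTF1/J mice come from a cross of C57BL/6J with CAST/EiJ, and in such names the strain of the mother, which passes on the mitochondrial genome, comes first. The labels number the tissue samples separately but enter the same donor for both, so the spread between replicates may be technical. With 1 group and 2 libraries no test was made and no p-value is given. Every value describes these libraries, and intervals cover counting error only.

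Expected counts summed to 31196858 in replicate 1 and 32292150 in replicate 2, and spike-ins took 0.372% and 0.363% of them. Of 30 cell type markers 27 reached 1 TPM in both libraries, with the neuronal gene Snap25 at 1348 and 1306 TPM and the muscle genes Ckm and Myh4 at or below 0.140 TPM in both, while Acta1, the third muscle gene, had 3.92 and 4.75 TPM. The markers of neurons, astrocytes, oligodendrocytes, microglia and endothelium were all among the 27. Of these markers 1 passed 2-fold between the libraries, the choroid plexus gene Ttr, at 6.12 and 34.3 TPM in replicates 1 and 2, and the red blood cell markers summed to 229 and 294 TPM. The part of either in the results below was not tested. In bulk tissue, fewer cells of a type and less RNA per cell cannot be told apart.

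The mitochondrial genome is a small circle in many copies per cell. It encodes subunits of the respiratory chain and ATP synthase, and the ribosomal and transfer RNAs that translate them inside the organelle, while all other mitochondrial proteins come from nuclear genes. Both strands are transcribed into long precursors. The RNAs are cut from these, in most places at the transfer RNAs that lie between them, and most mRNAs then receive poly(A) tails. Neurons of the cortex rely on oxidative phosphorylation for most of their energy. Stretches of mitochondrial DNA have also been inserted into nuclear chromosomes during evolution, and reads from a recent insertion look like reads from the organelle.

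The 4 copies lay side by side on the minus strand of chromosome 1, in a block that also held Gm28438, Gm10222 and Gm28439, copies of mt-Nd3, mt-Nd4l and mt-Nd4. In assembly mm10 the 7 genes spanned 24611535 to 24616197 (4663 bases) and followed bases 6381 to 11042 of the mitochondrial chromosome (4662 bases) in the same order. Start and end positions of gene and copy added up to a single number across the block, apart from a shift of 1 base between mt-Nd3 and mt-Nd4l, the stretch that holds the transfer RNA gene mt-Tr. The following sequences show how little separates gene and copy. They come from the GENCODE M21 transcripts and are written 5′ to 3′. In the first 6, capitals mark bases of the mitochondrial transcript that the annotated copy lacks.
mt-Co2 (end, chrM:7664-7696, plus strand): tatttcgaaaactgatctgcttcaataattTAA
Gm28661 (end, chr1:24614885-24614914, minus strand): tatttcgaaaactgatctgcttcaataatt
mt-Atp6 (end, chrM:8575-8607, plus strand): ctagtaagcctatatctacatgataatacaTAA
Gm10925 (end, chr1:24613974-24614003, minus strand): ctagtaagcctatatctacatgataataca
mt-Co3 (end, chrM:9360-9390, plus strand): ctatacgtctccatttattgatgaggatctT
Gm28437 (end, chr1:24613189-24613218, minus strand): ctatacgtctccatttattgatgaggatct
In the next pair, capitals mark the bases that differ between mt-Co1 and the start of its copy.
mt-Co1 (chrM:6381-6425, plus strand): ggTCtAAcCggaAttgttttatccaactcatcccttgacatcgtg
Gm29216 (start, chr1:24616153-24616197, minus strand): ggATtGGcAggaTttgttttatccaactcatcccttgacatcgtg

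Gm28661 was identical to the first 681 of the 684 bases of mt-Co2, Gm10925 to the first 678 of the 681 bases of mt-Atp6, and Gm28437 to the first 783 of the 784 bases of mt-Co3. Of all 100-base windows of the mitochondrial transcript, the copy held 582 of 585 for mt-Co2, 579 of 582 for mt-Atp6 and 684 of 685 for mt-Co3. None of these 3 copies had a 100-base window of its own. Gm29216 is shorter, 492 bases, and matched mt-Co1 from base 1054 to base 1545. It differed from mt-Co1 at 6 positions, T1056A, C1057T, A1059G, A1060G, C1062A and A1066T, counted from the first base of mt-Co1, with the mitochondrial base first. Gm29216 held 380 of the 1446 windows of mt-Co1 (26.3%) and had 13 windows of its own. A read of that length therefore almost never tells mt-Co2, mt-Atp6 or mt-Co3 from its copy, whereas most of mt-Co1 lies outside its copy.

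The genes of the 4 pairs lie as follows in mm10. mt-Co2 (ENSMUSG00000064354.1) runs from 7013 to 7696 on chromosome M, plus strand, and Gm28661 (ENSMUSG00000102070.1) from 24614885 to 24615565 on chromosome 1, minus strand. mt-Atp6 (ENSMUSG00000064357.1) runs from 7927 to 8607 and Gm10925 (ENSMUSG00000100862.1) from 24613974 to 24614651 on the same chromosomes and strands. mt-Co3 (ENSMUSG00000064358.1) runs from 8607 to 9390 and Gm28437 (ENSMUSG00000101111.1) from 24613189 to 24613971. mt-Co1 (ENSMUSG00000064351.1) runs from 5328 to 6872 and Gm29216 (ENSMUSG00000101249.1) from 24615706 to 24616197.

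How the deposited tables divided these reads differed from gene to gene. For mt-Co2, which encodes subunit 2 of cytochrome c oxidase, Gm28661 received 75979 and 84706 expected counts in replicates 1 and 2, and mt-Co2 itself 1583 and 1539. The copy thus held 98% (exact Clopper-Pearson 95% interval 97.9 to 98.1) and 98.2% (98.1 to 98.3) of the sum. For mt-Atp6, which encodes subunit a of ATP synthase, Gm10925 received 60439 and 82797 counts and mt-Atp6 36775 and 25264, so that the copy share was 62.2% (61.9 to 62.5) and 76.6% (76.4 to 76.9). These intervals cover counting alone and not the error of dividing reads between identical sequences, which is larger: the authors' posterior SD of that division was 2.43% and 2.98% of the sum for Gm10925, and 3.43% and 4.20% for Gm28661.

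For mt-Co3, which encodes subunit 3 of cytochrome c oxidase, Gm28437 held 68.5% (68.1 to 68.8) in replicate 1 and 77.9% (77.6 to 78.2) in replicate 2, with a posterior SD of the division of 5.22% and 4.68% of the sum. Gm29216 held 11.5% (11.3 to 11.6) and 9.99% (9.86 to 10.1) of its sum with mt-Co1, the catalytic subunit of cytochrome c oxidase, with a posterior SD of 0.116% and 0.115%. This was the smallest share of the 4, in the pair with the fewest shared windows. Across the whole block the share did not follow shared windows. Gm28438, Gm10222 and Gm28439 held 97.6%, 98.5% and 60.8% of the windows of their genes and received no expected counts after rounding.

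The authors deposited 2 further estimates of the same division. Posterior mean counts, from the same alignment-based tables, put 13212 (authors' SD 2663) and 13636 (SD 3619) counts on mt-Co2 in replicates 1 and 2, which is 8.34 and 8.86 times its expected count. The authors' TPM interval for mt-Co2 ran from 733 to 1585 in replicate 1 and from 589 to 1646 in replicate 2, and the TPM of mt-Co2 in the same tables, 132 and 120, lay below both. By posterior mean counts the copy share was 83.0% and 84.2% for Gm28661, 59.3% and 68.8% for Gm10925, 52.8% and 56.7% for Gm28437, and 11.5% and 9.99% for Gm29216. The summed counts of mt-Co2 and Gm28661 differed from those by expected counts by -0.00031% in replicate 1, and the other sums by no more, so these estimates differ in the division alone.

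Tables made from the reads without those alignments gave yet other shares. The copy share there was 87.1% and 86.2% for Gm28661, 26.7% and 31.9% for Gm10925, 53.7% and 48.7% for Gm28437, and 2.35% and 1.80% for Gm29216. Gm10925 held most of the reads of its pair by expected counts and fewer than its gene by the read-based tables. For Gm28437 the majority changed sides between the libraries within the read-based tables. In the plot of copy shares, the spread between estimates exceeds the spread between replicates for Gm28661, Gm10925, Gm28437 and Gm29216.

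**Figure D1:**
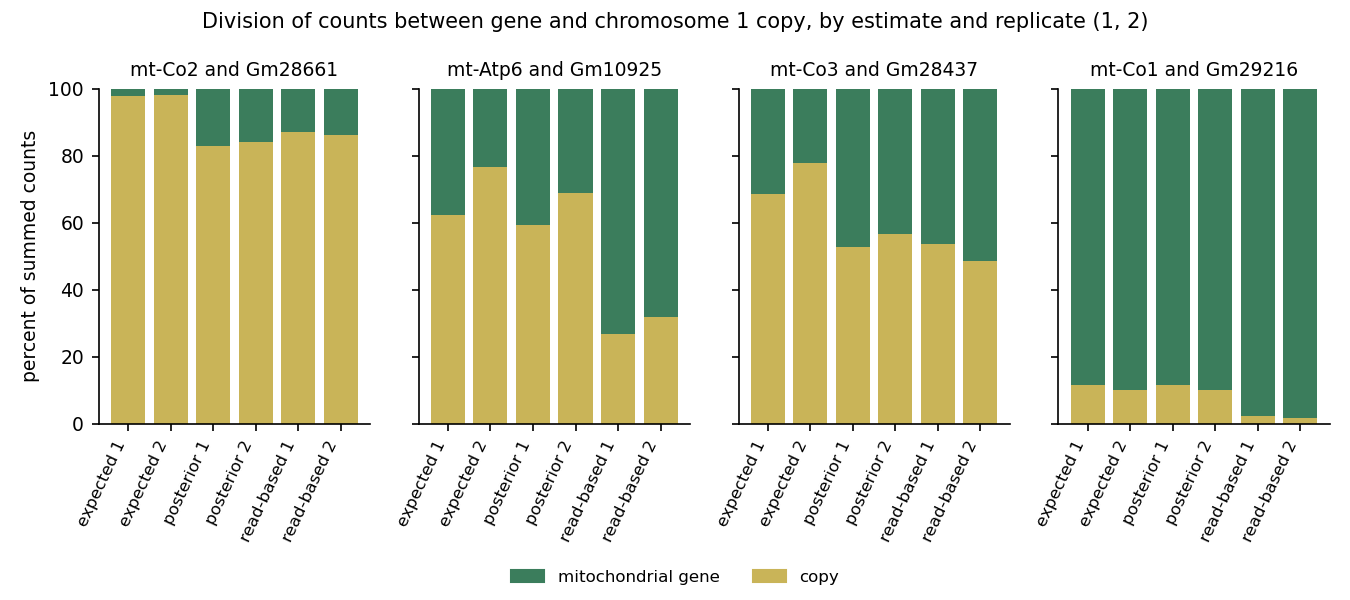
Share of the summed counts of gene and copy (percent, vertical axis) given to the copy (lower part of each bar) and to the mitochondrial gene (upper part), for expected, posterior mean and read-based counts in replicates 1 and 2. The copy share of Gm10925 runs from 26.7% to 76.6% over the same libraries, that of Gm29216 from 1.80% to 11.5%.

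The other copies of the block received no expected counts. Gm28438, Gm10222 and Gm28439 had 0 expected counts in both libraries after rounding, although Gm10222 was identical to 294 of the 297 bases of mt-Nd4l, which encodes a small subunit of complex I. By posterior mean counts Gm10222 had 485 (authors' SD 310) and 828 (SD 435) counts, 7.20% and 9.37% of its sum with mt-Nd4l. In the read-based tables Gm28439 had 2040 and 518 counts, 4.41% and 0.969% of its sum with mt-Nd4. Gm28438 shared 243 of the 249 windows of mt-Nd3 (97.6%) and Gm28439 777 of the 1279 windows of mt-Nd4 (60.8%). The ends of mt-Nd4l and Gm10222, shown because their expected counts were divided the opposite way from those of mt-Co2, have the same structure as the pair at the end of mt-Co2, with capitals for the bases that the annotated copy lacks.
mt-Nd4l (end, chrM:10141-10173, plus strand): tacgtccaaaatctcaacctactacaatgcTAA
Gm10222 (end, chr1:24612407-24612436, minus strand): tacgtccaaaatctcaacctactacaatgc
The only difference between mt-Nd3 and Gm28438 over their shared length was T3C, shown in capitals.
mt-Nd3 (start, chrM:9459-9488, plus strand): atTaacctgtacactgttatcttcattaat
Gm28438 (start, chr1:24613090-24613119, minus strand): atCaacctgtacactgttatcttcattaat

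Further copies were sought among annotated pseudogene transcripts in sense orientation only. There 7 copies matched a mitochondrial mRNA or ribosomal RNA with at least 98% identity along 80% or more of the shorter sequence, all of them in this block. They summed to 214924 and 258502 expected counts. A further 9 copies had 90 to 98% identity, 5 of them with 0 counts in both libraries, and they summed to 63.8 and 64.7 counts. The most similar of the 9, Gm13340, a copy of the whole of mt-Co1 on chromosome 2 with 97.6% identity, had 32.1 counts in replicate 1 and 27.9 in replicate 2. Because the division is so uncertain, the level of mt-Co1, mt-Co2, mt-Atp6 and mt-Co3 is given below from the summed counts of gene and copy over the effective length of the mitochondrial gene, in TPM. TPM is a length-corrected share of all transcripts in a table, and levels of different genes are compared on this scale. Shares and ratios of counts between genes are given beside it and also depend on transcript length. How much of each sum came from chromosome 1 was not tested.

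Together the 41 genes held 7.30% and 7.66% of expected counts in replicates 1 and 2 (7.48% ± 0.253, SD, n = 2), and 10.7% and 10.9% of TPM. The ribosomal RNAs took 5.09% (5.08 to 5.09) and 5.26% (5.25 to 5.26) of counts. The mRNAs with the 4 copies took 2.21% (2.21 to 2.22) and 2.40% (2.40 to 2.41), or 1.52% and 1.60% when the copies were left out. Ribosomal RNA counts were 2.30 and 2.19 times the mRNA counts with copies. Within the mRNAs with copies, subunits of complex IV took 1.12% and 1.18% of counts, those of complex I 0.575% and 0.647%, those of ATP synthase 0.321% and 0.348%, and cytochrome b of complex III 0.201% and 0.223%.

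The ribosomal RNAs stood above all mRNAs per length. mt-Rnr2, the 16S RNA of the large mitochondrial ribosomal subunit (ENSMUSG00000064339.1, chromosome M, 1094 to 2675, plus strand), had a level of 36830 TPM in replicate 1 and 37291 TPM in replicate 2. mt-Rnr1, the 12S RNA of the small subunit (ENSMUSG00000064337.1, chromosome M, 70 to 1024, plus strand), had 26889 and 25952 TPM. The groups of values did not overlap, and the ratio of levels, mt-Rnr2 over mt-Rnr1, was 1.37 and 1.44 (1.40 ± 0.0476, SD, n = 2). By read-based levels the ratio was 1.59 and 1.68 (1.64 ± 0.0663), so it depends on the quantification by more than on the replicate. By expected count the ratio was 2.37 and 2.49, since mt-Rnr2 is the longer transcript. The mean ribosomal RNA level was 18.0 and 15.5 times the median mRNA level. Any removal of ribosomal RNA during library making would change these levels and the ribosomal RNA shares above. Its part was not tested.

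Of the 13 mRNAs, mt-Atp6 of ATP synthase and the subunits of cytochrome c oxidase led. mt-Atp6 summed with Gm10925 had the highest level, 8173 TPM in replicate 1 and 8481 TPM in replicate 2 (8327 ± 218, SD, n = 2). mt-Co2 with Gm28661 followed at 6488 and 6734 TPM, mt-Co1 with Gm29216 at 6347 and 6500 TPM, and mt-Co3 with Gm28437 at 5945 and 6030 TPM. The values of mt-Co2 and mt-Co1 overlapped between libraries, with mt-Co2 above mt-Co1 within each, while mt-Atp6 stood clear above and mt-Co3 clear below. Even the lowest of the 4, at 5945 and 6030 TPM, was above the highest of the other 9 mRNAs, at 2932 and 3144 TPM. Without its copy mt-Co2 would be the lowest of all mRNAs at 132 and 120 TPM (126 ± 8.70), and mt-Atp6 and mt-Co3 would stand at 3092 and 1983 TPM and at 1875 and 1334 TPM. By contrast mt-Co1 alone kept 5619 and 5851 TPM.

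Cytochrome b, the complex I subunits and mt-Atp8 lay lower. mt-Cytb, which encodes cytochrome b of complex III, had 2932 and 3144 TPM, and mt-Nd1, a membrane subunit of complex I, 2904 and 2971 TPM. Their values overlapped between libraries, with mt-Cytb above mt-Nd1 within each. mt-Nd4, mt-Nd4l, mt-Nd3, mt-Nd2 and mt-Atp8 formed a close group. mt-Nd4 had 1770 TPM in replicate 1 and 1927 TPM in replicate 2, mt-Nd4l 1663 and 2040 TPM, and mt-Nd3 1454 and 1601 TPM. mt-Nd2 had 1399 and 1621 TPM, and mt-Atp8, a small subunit of ATP synthase, 1340 and 1904 TPM. Neighbours in the order of means, mt-Nd4l, mt-Nd4, mt-Atp8, mt-Nd3 and mt-Nd2, overlapped, and the order changed between the libraries, but both values of mt-Nd4 and of mt-Nd4l lay above both of mt-Nd3 and of mt-Nd2. mt-Nd5, another membrane subunit of complex I, was below them at 1135 and 1237 TPM.

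mt-Nd6, a complex I subunit and the only mRNA on the minus strand (ENSMUSG00000064368.1, chromosome M, 13552 to 14070), was lowest at 158 and 171 TPM (164 ± 9.36, SD, n = 2). The median of the 12 plus-strand mRNAs, 2337 and 2505 TPM, was 14.8 and 14.7 times as high. Among those 12 the highest level was 7.20 and 6.85 times the lowest, a smaller ratio than that between their median and mt-Nd6. The plus strand held 99.8% of the mRNA counts in both libraries. mt-Nd6 overlaps the end of mt-Nd5 by 14 bases on the opposite strand. In the plot of levels along the genome, each library shows high ribosomal RNAs at the start, a middle stretch from mt-Co1 to mt-Co3 above the other mRNAs except at mt-Atp8, and mt-Nd6 far below its neighbours.

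**Figure D2:**
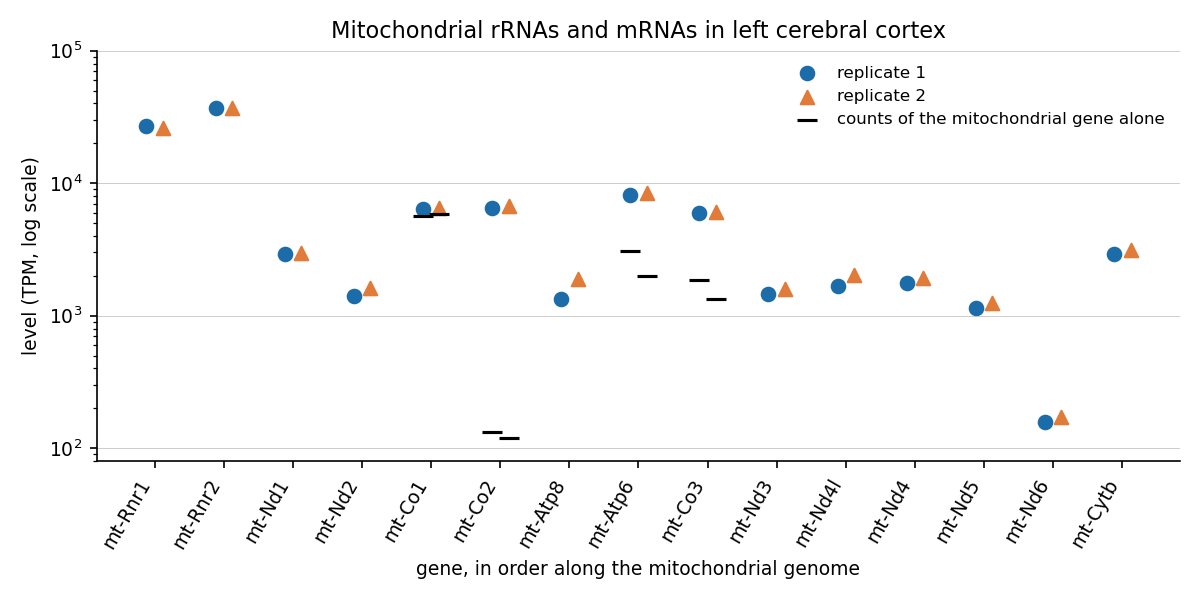
Level in TPM (vertical axis, log scale) of the 2 ribosomal RNAs and 13 mRNAs in order along the mitochondrial genome, with mt-Co1, mt-Co2, mt-Atp6 and mt-Co3 summed with their copies (circles replicate 1, triangles replicate 2) and from the mitochondrial gene alone (dashes). mt-Nd6 stands at 158 and 171 TPM, and mt-Co2 alone at 132 and 120 TPM against 6488 and 6734 TPM when summed.

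Of the neighbouring genes that share a mature RNA, mt-Atp8 and mt-Atp6 differed in level, and mt-Nd4l and mt-Nd4 overlapped. mt-Atp8 and mt-Atp6 are read from the same mRNA in mammals and overlap by 43 bases, capitals in the end of mt-Atp8 shown here because reads of that stretch belong to both.
mt-Atp8 (end, chrM:7912-7969, plus strand): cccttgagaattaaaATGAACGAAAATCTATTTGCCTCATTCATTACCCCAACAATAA
The level of mt-Atp8 was 1340 and 1904 TPM, against 8173 and 8481 TPM for mt-Atp6 with its copy. mt-Nd4l and mt-Nd4, which also share an mRNA and overlap by 7 bases, had similar levels, 1663 and 2040 TPM for mt-Nd4l and 1770 and 1927 TPM for mt-Nd4. mt-Atp8 is the shortest of the mRNA genes at 204 bases, and its effective length is shorter still, so its level rests on few positions.

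No transfer RNA had a count. All 22, of 59 to 75 bases, 14 on the plus and 8 on the minus strand, had 0 expected counts in both libraries and 0 in the read-based tables. The longest and the shortest are shown because every one of the 22 is shorter than the 100 bases at which the alignment-based tables begin to give an effective length.
mt-Tl1 (chrM:2676-2750, plus strand): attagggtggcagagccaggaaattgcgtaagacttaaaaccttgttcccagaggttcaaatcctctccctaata
mt-Ts2 (chrM:11613-11671, plus strand): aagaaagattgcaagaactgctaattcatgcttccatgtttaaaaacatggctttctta
mt-Tl1 is a transfer RNA for leucine and mt-Ts2 one for serine. The effective length of all 22 was 0 in the alignment-based tables, as for any transcript under 100 bases, and none of the 2398 annotated genes of that length had a count. A count of 0 would allow 3 counts, or 9.62e-06% of replicate 1 and 9.29e-06% of replicate 2, but it says nothing of transfer RNA abundance here.

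The read-based tables gave lower counts for the shorter mRNAs. As a share of the alignment-based count, with copies summed, the read-based count was 96.3% and 97.1% for mt-Co1 and 94.8% and 94.9% for mt-Cytb. It was 60.7% and 60.4% for mt-Atp6 and 54.9% and 58.4% for mt-Nd6. mt-Nd3 had 2406 and 1206 read-based counts, against 7398 and 8726 in the alignment-based tables. mt-Nd4l had 11 and 5 read-based counts, against 6729 and 8842, and mt-Atp8 had 0 and 0, against 2876 and 4376. Across the 13 mRNAs, length and this percentage had a Spearman rho of 0.91 in replicate 1 and 0.93 in replicate 2, points that share a library and in part overlap on the genome.

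Nuclear genes whose mean count reached 100 showed the same order by length. Their median percentage was 0 and 0 for 55 genes of 100 to 300 bases, 30.3 and 28.2 for 142 genes of 300 to 500 bases, and 88.2 and 88.8 for 415 genes of 500 to 800 bases. It was 107 and 108 for 11283 genes of 1200 bases or more. For mt-Rnr1, of 955 bases, the transcript length exceeded the effective length by 340.1 and 342.1 bases in the read-based tables of replicates 1 and 2, against 99 bases in the alignment-based ones. For the shortest mRNAs the read-based effective length was smaller still, 79.4 bases for mt-Nd3, 62.7 for mt-Nd4l and 43 for mt-Atp8 in replicate 1, against 249, 198 and 105 bases in the alignment-based tables. The read-based levels put mt-Co2 with its copy first at 11597 and 12543 TPM and mt-Atp6 with its copy second at 10784 and 11695 TPM, the reverse of the alignment-based order. mt-Co1 and mt-Co3 with their copies kept their places behind these, at 9339 and 10094 TPM and at 9249 and 9734 TPM.

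**Figure D3:**
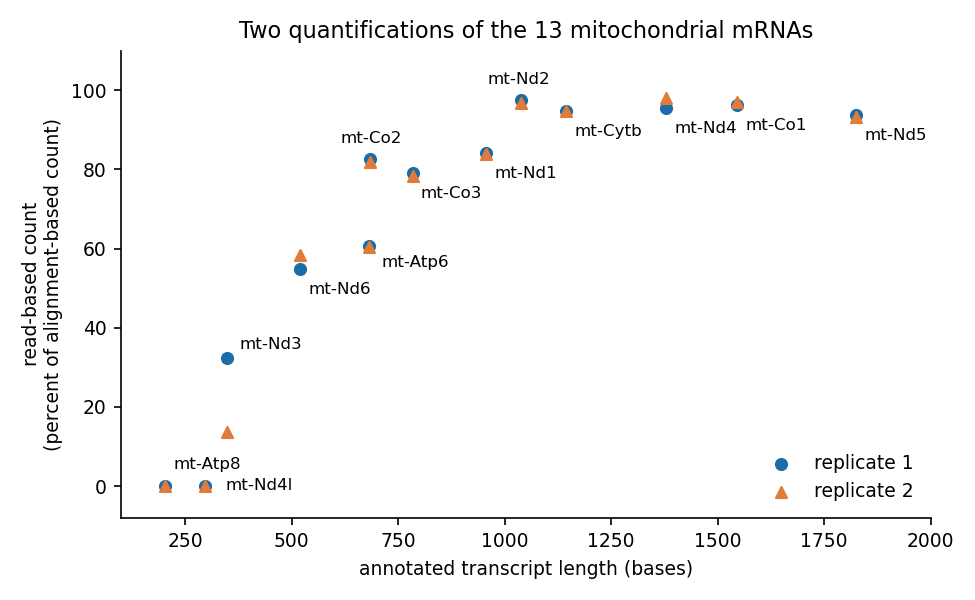
Read-based count as a percentage of the alignment-based count (vertical axis) against annotated transcript length in bases (horizontal axis) for the 13 mRNAs, copies summed, circles for replicate 1 and triangles for replicate 2. mt-Atp8 and mt-Nd4l lie at or near 0, mt-Nd3 at 32.5% and 13.8%, and mt-Nd4 at 95.6% and 98.1%.

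By expected counts the mitochondrial RNAs differed between the libraries by less than 2-fold, though most intervals left out equality. The ratio of replicate 2 over replicate 1 was taken from counts scaled with the TMM method over all genes. A gene was called when its exact 95% counting interval lay wholly beyond 2-fold, which 0.307% of the 18562 genes of mean count 10 or more did. Of the 41 mitochondrial genes and copies 19 had such a count, and 0 of 19 were called. Beyond 1.5-fold were 0 of 19, against 0.479% of all genes. With background shares this small, 0 of 19 does not set these genes apart. The interval lay wholly above equality, that is higher in replicate 2, for 15 of 19 (background 8.17%) and wholly below for 3 of 19 (background 6.89%). Narrow intervals of deep genes raise such shares, and among genes of mean count 1000 or more they were 16.2% above and 9.53% below. Most of the 19 had counts far above that limit, so this background matches their depth only in part. By read-based counts mt-Nd3, with a log2 ratio of -1.02 (-1.12 to -0.92), lay wholly beyond 1.5-fold.

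By expected counts, gene and copy had opposite signs in all 4 pairs, with intervals that again leave out the division of reads. Gm10925 had a log2 ratio of 0.43 (0.42 to 0.45) and mt-Atp6 alone -0.56 (-0.59 to -0.54), while their sum had 0.13. Gm28437 had 0.28 and mt-Co3 alone -0.41, with 0.10 for the sum. Gm29216 had -0.09 (-0.11 to -0.06) and mt-Co1 alone 0.14, with 0.11 for the sum. Gm28661 had 0.14 and mt-Co2 alone -0.06 (-0.16 to 0.04), an interval that holds equality, with 0.13 for the sum. In the read-based tables the log2 ratio was 0.01 (-0.01 to 0.03) for mt-Atp6 and 0.37 for Gm10925, and 0.23 for mt-Co3 and -0.06 for Gm28437. It was 0.21 (0.17 to 0.25) for mt-Co2 and 0.10 for Gm28661. The sign of mt-Co3, mt-Co2 and Gm28437 thus rests on the estimate. That of mt-Atp6 was not kept in the read-based tables, where its interval held equality. By posterior mean counts mt-Atp6 had -0.25 and mt-Co3 -0.02. The sums changed little, with read-based ratios of 0.12, 0.08, 0.12 and 0.11 for the sums of mt-Atp6, mt-Co3, mt-Co1 and mt-Co2 with their copies.

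With copies summed, all 13 mRNAs had an interval above equality in the alignment-based tables, with log2 ratios from 0.10 to 0.58 and a median of 0.19, against a median of -0.00 over all genes. The highest were mt-Atp8 at 0.58 (0.52 to 0.65) and mt-Nd4l at 0.37 (0.33 to 0.42), the shortest mRNA genes. By read-based counts, 11 of the 13 reached a mean count of 10, of which 10 lay above equality and mt-Nd3 below it at -1.02 (-1.12 to -0.92), and the median was 0.12. mt-Atp8 and mt-Nd4l did not reach that count there, so their ratios were seen in the alignment-based tables only. By expected counts the mRNAs with copies together had 0.15 (0.14 to 0.15) and the ribosomal RNAs 0.08 (0.07 to 0.08), with mt-Rnr2 at 0.10 and mt-Rnr1 at 0.03. Complex I mRNAs had 0.20, cytochrome b of complex III 0.18, ATP synthase 0.15 and complex IV 0.11. These are differences between 2 libraries, whose cause was not tested, and no replicate check of them exists.

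**Figure D4:**
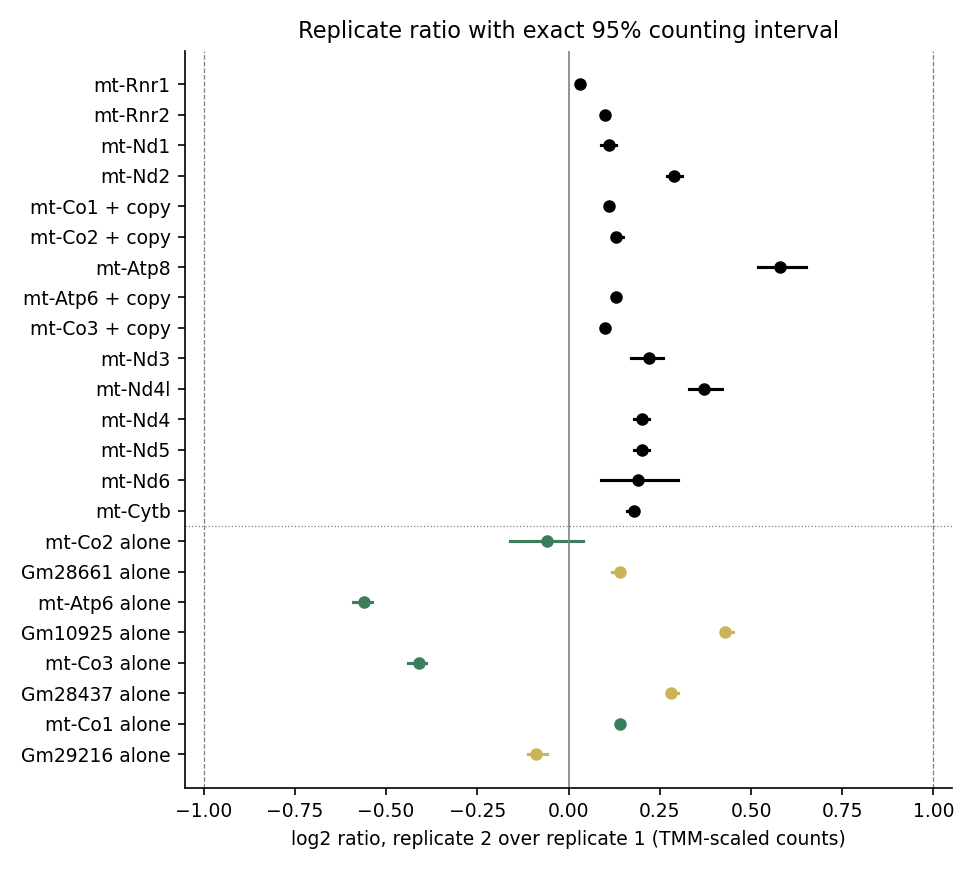
Log2 ratio of replicate 2 over replicate 1 from TMM-scaled counts (horizontal axis) with the exact 95% counting interval as a line, for ribosomal RNAs and mRNAs with copies summed (above the dotted line) and for the members of each pair alone (below it), all by expected counts, dashed lines marking 2-fold. Summed values lie between 0.03 and 0.58, while mt-Atp6 and Gm10925 alone lie at -0.56 and 0.43.

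Respiratory complexes are built from subunits of both genomes. For complex I, the NADH dehydrogenase, the median level of its 7 mitochondrial mRNAs was 1454 TPM in replicate 1 and 1621 TPM in replicate 2, against 68.2 and 62.2 TPM for the nuclear subunit genes Ndufs1, Ndufv1 and Ndufa9, a ratio of 23.7 ± 3.34 (SD, n = 2). For complex III, mt-Cytb at 2932 and 3144 TPM stood against a median of 100 TPM in each library for Uqcrc1, Uqcrc2 and Cyc1. For complex IV the mitochondrial median of 6347 and 6500 TPM stood against 315 and 307 TPM for Cox4i1, Cox5a and Cox6a1. For ATP synthase 4757 and 5192 TPM stood against 306 and 280 TPM for Atp5a1, Atp5b and Atp5c1.

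The ratios were 21.3 and 26 for complex I, 29.3 and 31.4 for complex III, 20.2 and 21.1 for complex IV and 15.6 and 18.6 for ATP synthase. In the read-based tables they were 17.3 and 17.9, 21.2 and 22.3, 16.8 and 17.6, and 11 and 12.5 in the same order. There the complex I median includes mt-Nd4l at 10.9 and 4.66 TPM, and the ATP synthase median includes mt-Atp8 at 0 TPM. The low read-based values of these short genes lower both medians. The ratios of complex III and complex IV, whose medians hold neither gene, were also lower in the read-based tables. The cause was not tested. mt-Nd6 came nearest to these nuclear genes, with 158 and 171 TPM against 115 and 103 TPM for the nuclear core subunit Ndufv1. The highest nuclear subunit was Atp5b, the catalytic beta subunit of ATP synthase, at 708 TPM, and the lowest Ndufa9, an accessory subunit of complex I, at 62.4 TPM as means of both libraries. Ndufs1 and Ndufv1, core subunits of complex I, averaged 65.2 and 109 TPM. Uqcrc1, Uqcrc2 and the cytochrome c1 gene Cyc1 averaged 160, 100 and 82.4 TPM, and Cox4i1, Cox5a and Cox6a1 averaged 468, 169 and 311 TPM. The alpha and gamma subunit genes Atp5a1 and Atp5c1 averaged 293 and 104 TPM.

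Of these 12 nuclear genes 0 were called between the libraries, where the background was 0.307%. An interval above equality was seen for 0 and below it for 3 (background among genes of mean count 1000 or more 16.2% above and 9.53% below). The 3 were Ndufa9 at -0.14, Cox4i1 at -0.07 and Atp5a1 at -0.04 on the log2 scale. The median log2 ratio of the 12 genes was -0.05, against 0.19 for the 13 mitochondrial mRNAs with copies summed. The difference between the medians was not tested.

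**Figure D5:**
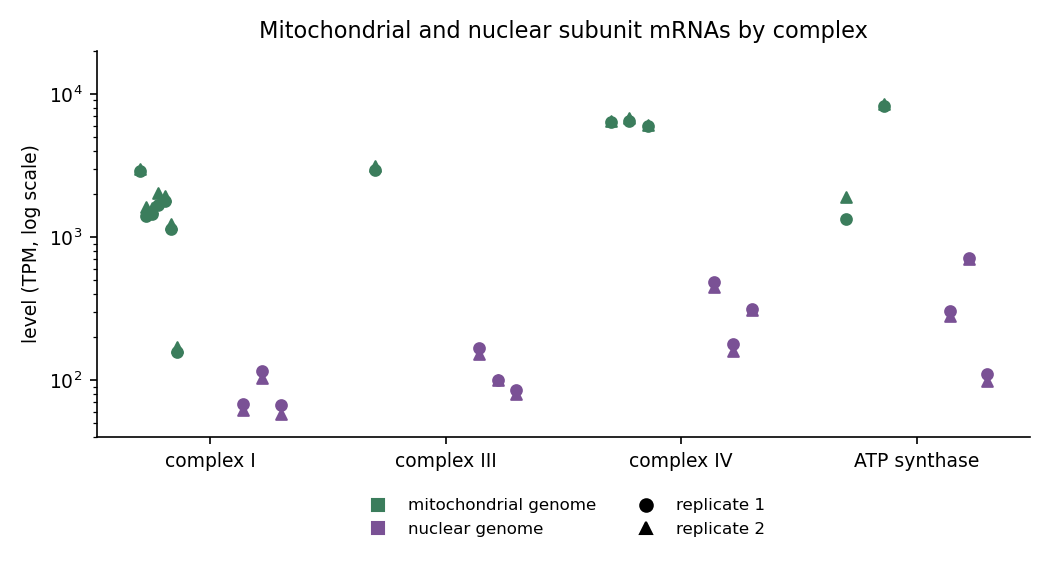
Level in TPM (vertical axis, log scale) of mitochondrial mRNAs with copies summed (green, left in each complex) and of nuclear subunit genes (purple, right), circles for replicate 1 and triangles for replicate 2. All mitochondrial mRNAs lie above the plotted nuclear subunits of their complex, mt-Nd6 by the least, at 158 and 171 TPM against 115 and 103 TPM for Ndufv1.

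Nuclear genes for the making and decay of mitochondrial RNA were all expressed at modest levels. Of 40 listed genes 39 were matched, all 39 reached 1 TPM in both libraries, and the median was 9.65 and 9.36 TPM. Among transcription genes the mitochondrial RNA polymerase Polrmt averaged 20.4 TPM, Mterf3 19.5 TPM and the DNA-packaging factor Tfam 16.3 TPM, with the elongation factor Tefm lowest at 3.62 TPM. Among replication genes the DNA polymerase Polg averaged 41.5 ± 6.23 TPM, the single-strand binding protein Ssbp1 13.8 TPM and the topoisomerase Top1mt 8.20 TPM, and the accessory subunit Polg2 was lowest at 1.93 TPM.

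Among processing genes Fastk, whose mitochondrial form is needed for mt-Nd6 mRNA, was highest at 60.4 ± 4.49 TPM. The RNA granule protein Grsf1 averaged 40.3 TPM and Trnt1, which adds CCA to transfer RNAs, 22 TPM. Prorp, the nuclease of mitochondrial RNase P, listed in the files as 1110008L16Rik, was lowest at 3.75 TPM. Among genes of stability and decay, Slirp and Lrpprc, which together bind and stabilise mitochondrial mRNAs, averaged 43.5 and 26.6 TPM. The exoribonuclease gene Rexo2 averaged 43.2 TPM and Pnpt1, the polynucleotide phosphorylase, was lowest at 9.17 TPM. Among modification genes the transfer RNA enzymes Gtpbp3, Trmu and Mto1 averaged 14.2, 12.4 and 11 TPM, and Tfb1m, which dimethylates the 12S RNA, was lowest at 2.90 TPM.

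None of the 39 was called between the libraries, where the background was 0.307%. 0 of 39 had an interval above equality (background 8.17%) and 3 below it, near the background of 6.89%, Fastkd5 at -0.40 (-0.65 to -0.15), Mrm1 at -0.24 and Ssbp1 at -0.20 on the log2 scale. The median of the list was -0.01 and of the 30 cell type markers 0.06.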

How the data were processed

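Total RNA was measured in 2 libraries of 1 group. Per the lists of files the authors deposited with each library, the tables use assembly mm10 and GENCODE M21. Expected counts, posterior mean counts with their SD, TPM and a TPM interval per gene were deposited from transcriptome alignments, and estimated counts and TPM per transcript from the reads without them. Which aligner and quantification tools were used, and the level of the TPM interval, is not given in the sources used here. TPM sums to a fixed total over each table, so the 2 kinds of table have different scales.

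The members and gene lists were chosen with earlier results of these data known. Expected counts were rounded. TMM scaling in edgeR 4.0.16, under R 4.3.3, used the 18562 genes of mean count 10 or more and gave replicate 2 a size of 1.01 relative to replicate 1. Log2 ratios used a prior count of 0.5, and intervals are exact Clopper-Pearson 95%. No source names molecular identifiers, and PCR duplicates are not independent, so intervals and floors reflect counting error only. A gene was called with an interval beyond 2-fold. The summed level is the counts of gene and copy over the effective length of the gene. Copies were found with blastn 2.17.0 with at least 98% identity along 80% or more of the shorter sequence. Only matches in sense orientation to transcripts annotated as pseudogenes were kept.

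Named were all mRNAs, ribosomal RNAs, the 4 copies and 12 nuclear subunits, and, of other nuclear factors, the 3 highest and the lowest of each group by mean TPM. Transfer RNAs had no order, all being 0, and the longest and shortest are shown. 1 further nuclear subunit is not reported here and enters no median. Nuclear genes outside this rule were named after their values were seen. Alternatives covered quantification (DESeq2 1.42.0 size factors among the scalings), length, scale, copies, filter, fold limit and each replicate left out.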

Additional observations from a re-analysis of the deposited data

How the results depend on the processing

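The share of mRNAs with 4 copies, 2.31% of counts, was 1.91% in the read-based tables and 1.56% without the copies (2.21% to 2.40% leaving out each replicate in turn). The ribosomal RNA share, 5.17%, was 5.01% in the read-based tables (5.09% to 5.26%). The read-based copy shares were 86.6% for Gm28661 (98.1% by expected counts, 98% to 98.2% leaving out each replicate), 29.3% for Gm10925 (69.4%, 62.2% to 76.6%), 51.2% for Gm28437 (73.2%, 68.5% to 77.9%) and 2.08% for Gm29216 (10.7%, 9.99% to 11.5%). Posterior mean counts, an alternative chosen after seeing the data, gave 83.6% for Gm28661 and 54.7% for Gm28437. The log2 ratio of the mRNAs with copies, 0.15, was 0.12 scaled by the total of annotated genes, 0.15 by spike-ins, 0.14 in the read-based tables and 0.10 without the copies. That of the ribosomal RNAs, 0.08, was 0.05 by the total, 0.08 by spike-ins and 0.09 in the read-based tables. Neither class ratio changed direction, but single genes did. In the read-based tables the log2 ratio of mt-Atp6 was 0.01, of mt-Co3 0.23, of mt-Co2 0.21, of mt-Nd3 -1.02 and of Gm28437 -0.06. By expected counts these ratios were -0.56, -0.41, -0.06, 0.22 and 0.28 in the same order. Gm10925 held the smaller share of its pair in the read-based tables. The cause of these differences was not tested. No gene was called beyond 2-fold under any of 7 alternatives, and 17 rather than 19 had a mean count of at least 10 in the read-based tables. Of 15 levels, 12 were higher in the read-based tables, all 15 higher on the scale of protein-coding genes and all 15 lower per annotated kilobase. The scale of protein-coding genes and the value per kilobase are changes of unit. Their direction was set by the rescaling and says nothing about single genes. No paired analysis was possible because there is 1 group. Transcripts under 100 bases have an effective length of 0 in the alignment-based tables.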
